A study of Caenorhabditis elegans with 2 samples.

Results

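The small nuclear RNA (snRNA) genes of C. elegans were set against the binding sites of FLT-1 in early embryos. They comprise every gene of biotype snRNA that the Ensembl annotation of WBcel235 places on a nuclear chromosome, the spliced leader genes named sls- included. There were 129 such genes among 46890 nuclear genes, and all 129 also had the biotype snRNA in RefSeq. FLT-1, also called BAZ-2, belongs with the BAZ2 chromatin regulators of vertebrates. It was mapped by chromatin immunoprecipitation with sequencing in strain OP797, which carries the integrated fosmid transgene wgIs797, a flt-1 gene tagged with TY1, EGFP and 3xFLAG together with unc-119(+), in an unc-119(tm4063) background. The samples were whole early embryos of 1 hour from egg bleaching, precipitated with antibody against GFP, as 2 biological replicates of 1 group, with no second condition and no control library used here. The tagged protein came from a transgene copy, the chromatin from all cells of the embryo, so that binding in few cells and weak binding in many cannot be told apart, and peak lists hold no expression markers with which to check the stage.

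The snRNAs are short RNAs that, with proteins, form the particles of the spliceosome: they recognise the 5′ splice site and the branch point, and form the catalytic core. Nematodes also make spliced leader RNAs, which donate a short leader to the 5′ end of many messenger RNAs by trans-splicing. SL1 is used at the first or sole gene of a transcription unit and SL2 mainly at downstream genes of operons. SmY RNAs, from the smy genes, are small Sm-bound RNAs found with proteins of spliced leader trans-splicing. Such genes are short, exist in many near-identical copies, and are transcribed by RNA polymerase II, or by polymerase III in the case of U6, from compact promoters bound by the SNAP complex just upstream of the start.

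The 129 genes carried 94 distinct sequences, and 44 of them shared their full sequence with at least 1 other. The reference names the sls-1, sls-2 and smy genes but gives no U type for the others, so those were grouped by sequence, at 80% identity or more over 80% or more of the length, and are called by the usual length of a member. One gene of each of 6 groups is shown to let these families be told apart, 5′ to 3′ on the gene's strand from RefSeq's WBcel235 sequence, with capitals on the letters discussed below. They are C52E4.8 (V:11980118-11980261, + strand), sup-6 (II:12944803-12944967, −), F11A5.14 (V:16225701-16225887, −), sls-2.1 (II:5844865-5844974, +), sls-1.10 (V:17120694-17120791, −) and smy-1 (IV:9511763-9511839, −).
C52E4.8: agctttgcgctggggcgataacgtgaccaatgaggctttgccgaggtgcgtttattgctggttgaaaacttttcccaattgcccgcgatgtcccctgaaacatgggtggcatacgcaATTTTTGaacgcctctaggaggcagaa
sup-6: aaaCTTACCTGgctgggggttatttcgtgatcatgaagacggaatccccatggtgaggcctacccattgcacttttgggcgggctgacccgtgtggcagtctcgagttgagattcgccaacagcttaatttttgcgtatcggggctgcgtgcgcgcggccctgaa
F11A5.14: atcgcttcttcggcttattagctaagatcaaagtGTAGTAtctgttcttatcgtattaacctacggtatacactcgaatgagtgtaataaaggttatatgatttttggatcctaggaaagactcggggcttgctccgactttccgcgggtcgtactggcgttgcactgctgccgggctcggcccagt
sls-2.1: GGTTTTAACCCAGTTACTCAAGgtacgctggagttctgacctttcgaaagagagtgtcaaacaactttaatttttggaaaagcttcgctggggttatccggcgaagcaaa
sls-1.10: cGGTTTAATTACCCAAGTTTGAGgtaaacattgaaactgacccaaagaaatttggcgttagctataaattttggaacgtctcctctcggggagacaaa
smy-1: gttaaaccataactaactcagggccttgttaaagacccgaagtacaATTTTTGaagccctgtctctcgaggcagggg

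In sup-6 the capitals mark CTTACCTG, the letters with which U1 snRNA pairs with the 5′ splice site, present on the gene's strand in 12 of the 13 genes of the 165-base family. In F11A5.14 they mark GTAGTA, with which U2 snRNA pairs with the branch point, present in 18 of 19 genes of the 187-base family. In C52E4.8 and smy-1 they mark ATTTTTG, a run of the kind that Sm proteins bind. The same letters stand without capitals in sup-6, F11A5.14 and sls-2.1, so they do not tell these families apart. With a further G, ATTTTTGG was in 19 of 19 genes of the 187-base family, 11 of 12 of the 122-base family and 13 of 18 sls-2 genes. It was in 3 of 10 smy genes and in 0 of 5 genes of the 144-base family. In sls-2.1 and sls-1.10 they mark the 22 bases of the leader, which begins at base 1 of sls-2.1 and at base 2 of sls-1.10 as annotated. These matches describe the families and assign no type to any gene. The families held 23 (102-base), 19 (187-base), 18 (sls-2), 13 (165-base), 12 (122-base), 12 (sls-1), 10 (smy) and 5 (144-base) genes, and 17 genes stayed ungrouped.

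The sequence just upstream of the start also recurred. Among the 119 distinct sequences of the 100 bases before an snRNA gene, the 8 letters held by most were CGGAACCC, which occurred on the gene's strand in 30 of them. Their first letter lay 74 to 56 bases before the gene, with a median of −61. Examples from 5 families give the 80 bases upstream of a gene with an FLT-1 summit, then those of a gene without one. No gene of the 187-base family has a summit, so only 1 is shown. Capitals mark CGGAACCC or the form with another letter at position 3. Single pairs do not show how the letters and the summits go together. In the 102-base family, 5 of 23 genes held CGGAACCC, and 2 of these had a summit, as did 4 genes without the letters. The windows are III:10989599-10989678 (W05B2.8, + strand), III:9445831-9445910 (F54C8.8, +), IV:9444562-9444641 (F38E11.10, +), IV:8994668-8994747 (C53B4.9, +), II:12944968-12945047 (sup-6, −), V:14463353-14463432 (F08H9.10, −), II:5844785-5844864 (sls-2.1, +), II:5544274-5544353 (sls-2.3, −) and II:13836122-13836201 (F08G2.9, −).
W05B2.8 upstream: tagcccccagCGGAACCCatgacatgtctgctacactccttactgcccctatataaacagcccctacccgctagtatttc
F54C8.8 upstream: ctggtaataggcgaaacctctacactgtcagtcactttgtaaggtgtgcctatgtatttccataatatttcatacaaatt
F38E11.10 upstream: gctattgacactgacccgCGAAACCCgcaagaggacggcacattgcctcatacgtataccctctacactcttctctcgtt
C53B4.9 upstream: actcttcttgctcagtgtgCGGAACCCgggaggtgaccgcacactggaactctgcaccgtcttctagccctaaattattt
sup-6 upstream: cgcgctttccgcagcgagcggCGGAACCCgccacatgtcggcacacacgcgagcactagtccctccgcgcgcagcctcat
F08H9.10 upstream: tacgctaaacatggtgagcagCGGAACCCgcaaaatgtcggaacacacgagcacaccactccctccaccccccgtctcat
sls-2.1 upstream: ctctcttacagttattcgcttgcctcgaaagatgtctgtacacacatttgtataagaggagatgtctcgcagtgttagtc
sls-2.3 upstream: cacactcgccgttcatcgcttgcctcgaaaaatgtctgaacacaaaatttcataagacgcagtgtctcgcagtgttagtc
F08G2.9 upstream: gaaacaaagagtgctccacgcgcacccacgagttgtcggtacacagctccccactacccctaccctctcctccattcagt

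FLT-1 summits lay at a minority of the snRNA genes. The main list was the pooled list of both replicates after the threshold on the irreproducible discovery rate (IDR). The IDR measures how well the ranks of a peak agree between the peak sets compared. A peak can pass it in the pooled list without being found in each replicate, as at smy-1 below. It held 1083 peaks. Of the 129 snRNA genes, 18 had a summit of that list inside the gene or within 250 bp of it (14.0%, exact Clopper-Pearson interval 8.48 to 21.2, which covers counting error only). Among all nuclear genes the share was 3.28%. It was 44.3% (interval 40.3 to 48.3) for the 612 tRNA genes and 18.2% (14.3 to 22.7) for the 346 snoRNA genes, whose interval overlaps that of the snRNA genes. With the distance taken from the 5′ end alone, 17 snRNA genes (13.2%) had a summit, against 2.34% of nuclear genes.

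The replicates differed in how many of these genes they marked. The list of replicate 1, with 618 peaks, had a summit at 10 snRNA genes (7.75%, 3.78 to 13.8), against 2.22% of nuclear genes. That of replicate 2, with 747 nuclear peaks, had one at 18 (14.0%), against 2.35% of nuclear genes. All 10 genes of replicate 1 were among the 18 of replicate 2, and all 10 had a pooled summit. The depth of each library is unknown, and its part in this difference was not tested. The pooled ranked list, made before the IDR threshold, had a summit at 60 snRNA genes (46.5%, 37.7 to 55.5), against 40.7% of nuclear genes. That share is near the background, so an entry in the ranked list alone is not read here as a result about a gene.

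The 18 genes came from 6 of the 8 families, and 1 was ungrouped. The families with the larger shares were sls-2, with 5 of 18 genes (27.8%, 9.69 to 53.5), and the 102-base family, with 6 of 23 (26.1%, 10.2 to 48.4). The 122-base and 165-base families had 2 genes each, of 12 and 13. The 144-base family had 1 of 5 and the smy genes 1 of 10. No gene of the 187-base family (0 of 19, upper bound 17.6%) and no sls-1 gene (0 of 12, upper bound 26.5%) had one. These intervals overlap, so an order of the families by share was not resolved. They treat each copy as a separate observation, although the 12 sls-1 genes carried 2 distinct sequences. A lack of summits at such copies is not read as a measured absence, since reads may not be placeable there.

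**Figure D1:**
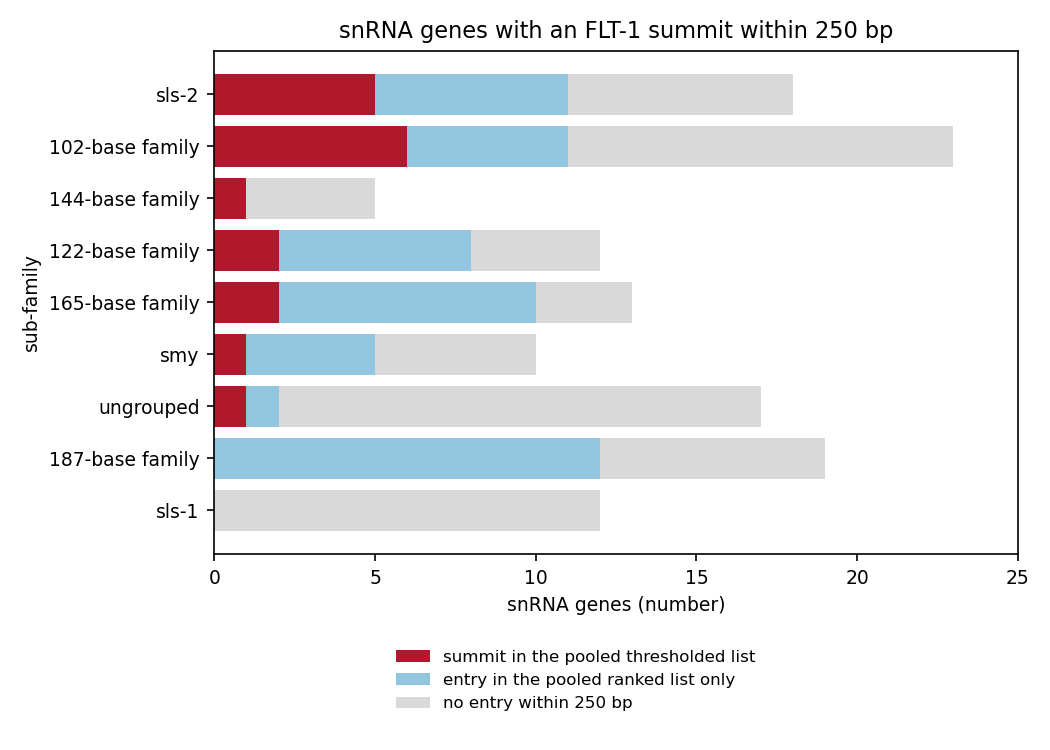
Number of snRNA genes of each sub-family (rows) with a summit within 250 bp in the pooled thresholded list (red), with an entry in the pooled ranked list alone (blue), or with neither (grey). The 102-base and sls-2 families had 6 and 5 genes with a thresholded summit, the 187-base family had 12 genes with ranked entries alone, and the 12 sls-1 genes had neither.

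Peak signal is the authors' value for a peak, on a scale the sources used here do not state, and it is used below only to rank peaks within 1 list. The 18 genes had 18 pooled peaks: W05B2.8 had 2, and sup-39 and mir-1831 shared 1. Their median signal was 99.1 (quartiles 70.3 and 122, range 49.7 to 215), with a median percentile of 66.2 within the list. The medians were 131 for peaks at tRNA genes and 199.6 for peaks at snoRNA genes, with median percentiles of 78.1 and 88.7. The peaks at snRNA genes thus ranked above the middle of the list and below those of both other classes by median. Peaks of all kinds in this list were mostly 230 bp wide with the summit 115 bp from the start; 12 of the 18 were of that form, so those summits are the midpoints of a fixed width.

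By position, the summits gathered at the start of the genes. Position is counted on the gene's strand, with 0 at the annotated 5′ end and negative values upstream. The median was 4 (quartiles −22.75 and 26.5), and 15 of the 18 summits lay within 60 bp of the 5′ end. The side of the 5′ end on which the median fell was not stable: it was −21 in replicate 1 alone, −12 in the upper 50% of peaks by signal and −4.5 with distance taken from the 5′ end. Of the 18, 8 lay upstream of the gene, 8 inside it and 2 beyond its 3′ end. For the 18 genes, the median share of 36-mers (runs of 36 bases) that occur once in the genome differed across the 5′ end. It was 100% in the 250 bp upstream and 37.2% over the gene, and the part of this in the summit positions was not tested. At tRNA genes the median was 15 (quartiles 9 and 24) and at snoRNA genes −52 (−58.75 and −45), so the snRNA summits had the widest quartile range of the 3 classes. Between replicates, the summits of the 10 genes found in both lay 2 to 77 bp apart with a median of 20, which is the scale on which the positions of single genes can be compared.

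**Figure D2:**
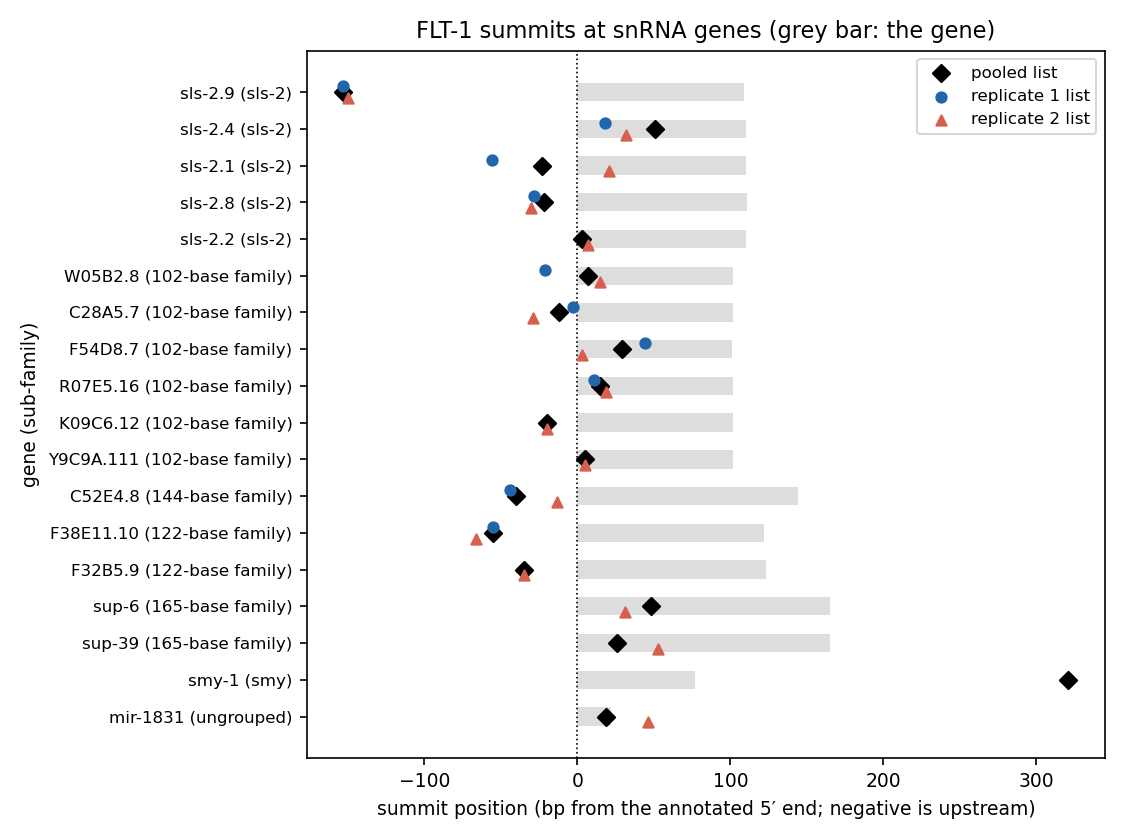
Summit position (horizontal axis, bp from the annotated 5′ end, negative upstream) for each of the 18 snRNA genes (rows, grouped by sub-family) in the pooled list (black diamonds), replicate 1 (blue circles) and replicate 2 (red triangles), with the gene as a grey bar. Most symbols lie within 60 bp of 0, sls-2.9 lies at −153 and smy-1 at 321.

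The 102-base family held 6 of the 18 genes, and its pooled summits lay from −20 to 29 with a median of 6. W05B2.8, in an intron of the dynein heavy chain gene dhc-4, had the highest signal of the family. Its peak at III:10989592-10989791 had a signal of 182 and rank 140 in the pooled list, 97.4 in replicate 1 and 97.3 in replicate 2. The summit was at 7 in the pooled list, at −21 in replicate 1 and at 15 in replicate 2. A second pooled peak, III:10989919-10990024, lay beyond the gene over an exon of dhc-4 with a signal of 58.1 and its summit at 298; a peak of replicate 1 lay over it and none of replicate 2.

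C28A5.7, in an intron of C28A5.6, had a signal of 147 in the pooled list, 78.5 in replicate 1 and 69.9 in replicate 2, in a narrow peak at III:4426910-4426992. Its summits lay upstream in all 3 lists, at −12, −3 and −29. F54D8.7 was the family's only intergenic gene with a summit. Its peak at III:5080754-5080983 had a signal of 125 in the pooled list, 81.7 in replicate 1 and 50.7 in replicate 2, with summits inside the gene at 29, 44 and 3. R07E5.16 lies in an intron of mpc-1, which encodes a subunit of the mitochondrial pyruvate carrier. Its peak at III:4414085-4414314 had a signal of 113 in the pooled list, 41.6 in replicate 1 and 73.3 in replicate 2, at 15, 11 and 19. These 4 genes were marked in both replicates and lie on chromosome III.

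The other 2 genes of the family passed the threshold in the pooled list and in replicate 2 but not in replicate 1. K09C6.12 lies within an exon of K09C6.2, and its summit was also in the promoter window of that gene. Its peak at V:858956-859185 had a signal of 70.2 in the pooled list and 42.9 in replicate 2, with the summit at −20 in both. Below the threshold, the ranked list of replicate 1 held an entry for it with a signal of 19.1 and a −log10 IDR of 0.09. Y9C9A.111, in an intron of Y9C9A.8, had a signal of 67.0 in the pooled list and 32.9 in replicate 2, both at 5 (IV:4930844-4931073). Its ranked entry in replicate 1 had a signal of 35.0 at −20 and a −log10 IDR of 1.84, just short of the value of 2 that an IDR of 0.01 gives.

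Of the 23 genes of this family, 14 are identical over their whole length, W05B2.8 and F54C8.8 among them. Of these copies 5 had a pooled summit. The flanking sequence of marked and unmarked copies in this set of 14 was compared. In the 250 bp upstream, the share of 36-mers that occur once in the genome was 91.2 to 100% for the 5 copies with a summit, with a median of 100%. For the 9 without one it was 25.6 to 100%, with a median of 51.6%. At or above 90% there were 6 copies, of which 5 had a summit, the exception being Y17G9A.90 in an intron of str-172. Below 90% there were 8 copies, at 25.6 to 60.5%, and none had a summit; 6 of them lie in introns of mam-3 and 2 in introns of F54C8.6. Other identical sets did not show this difference. F54D8.7 had a summit and its identical copies Y17G9A.85 and T08B6.62 had none, with an upstream share of 100% for each. The same held for C52E4.8 of the 144-base family, with a summit, and its copy T11F9.15, without one. The gene bodies of all marked members of the 102-base family held no unique 36-mer. Reads from such copies cannot be told apart over the gene, the sources used here state neither the read length nor the handling of repeated reads, and the part of unique sequence in these counts was not tested.

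Over all snRNA genes, of the 86 genes with 90% or more unique upstream 36-mers, 17 had a summit (19.8%), and of the 43 with less, 1 had a summit (2.33%), namely sls-2.9. The dividing value of 90% was chosen after the values had been seen. All 12 sls-1 genes are among the 43. The medians of the same upstream measure were close. They were 100% for genes with a summit (75.8 to 100%) and 98.6% for those without (0 to 100%). Within 250 bp on both sides the medians were 86.9% for genes with a summit (70.9 to 100%) and 83.4% for those without (0 to 100%).

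**Figure D3:**
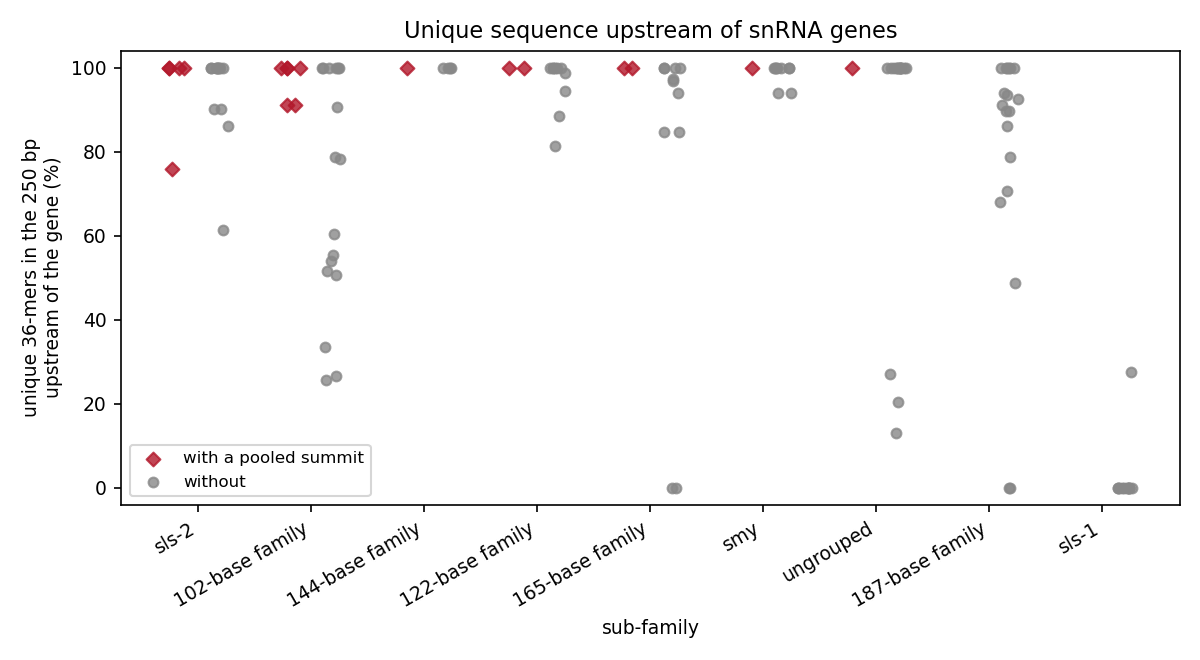
Share of 36-mers in the 250 bp upstream of each snRNA gene that occur once in the genome (vertical axis, %), by sub-family, for genes with a pooled summit (red diamonds, left) and without one (grey circles, right). Genes with a summit lie at 75.8% or above, and the sls-1 genes lie at 0 to 27.4%.

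The sls-2 genes, whose RNAs donate SL2, held 5 of the 18 genes with a summit. All 5 are intergenic, of 11 intergenic sls-2 genes, and none of the 7 sls-2 genes in introns had one in the pooled thresholded list. This depended on the list, since sls-2.5 and sls-2.16, both in introns, had summits in the authors' conservative list, as described below. sls-2.9 carried the highest signal of any snRNA gene, but over a tRNA gene. Its peak at I:13297637-13297812 had a signal of 215 and rank 102 in the pooled list, 116 in replicate 1 and 83.8 in replicate 2. The summits lay 150 to 153 bp upstream of sls-2.9 and, in the pooled list, 21 bp inside the tRNA gene M01E5.t1 (I:13297673-13297745, − strand), counted from its 5′ end. That is within the quartiles of tRNA summits in general, and it was the only peak near an snRNA gene with a tRNA gene under it or within 250 bp. Without it, 17 snRNA genes had a summit.

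The other 4 sls-2 genes had no tRNA gene nearby, and their summits lay at the gene. sls-2.4 had a signal of 125 in the pooled list, 44.1 in replicate 1 and 77.5 in replicate 2, with summits inside the gene at 51, 18 and 32 (I:4172155-4172380). sls-2.1 had a signal of 115 in the pooled list, 50.6 in replicate 1 and 73.5 in replicate 2 (II:5844817-5844903). Its summit was at −23 in the pooled list, at −56 in replicate 1 and at 21 in replicate 2, the widest gap between replicates among the 10 genes. The peak of sls-2.8 at III:12250328-12250557 lay in the promoter windows of Y75B8A.23 and of tim-1, a relative of the circadian gene timeless. It had a signal of 106 in the pooled list, 56.5 in replicate 1 and 44.6 in replicate 2, at −22, −28 and −30. sls-2.2 was found in the pooled list with a signal of 86.3 at 3 and in replicate 2 with 65.9 at 7 (II:5543486-5543715), but not in replicate 1. Its neighbour sls-2.3, the gene nearest outside the 250 bp limit, lay 563 bp from the same summit.

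The sls-2 genes sls-2.5, sls-2.16 and sls-2.18 lie in introns of the glutamate receptor gene glr-2 and had no summit in the pooled thresholded list. sls-2.5 was in the list of replicate 2 (III:7140441-7140664, signal 39.5 at 0) but not in the pooled list. It was also in the authors' conservative list with a signal of 66.7 at −1, as was sls-2.16 with 39.8 at 65, although its pooled ranked entry had a −log10 IDR of 0.56. That list likewise held 18 snRNA genes, with these 2 in place of K09C6.12 and smy-1. sls-2.18 had the highest pooled ranked signal of any gene without a summit, 48.2 at 9, with a −log10 IDR of 1.14. sls-2.17, which is intergenic, had 43.2 at −60 with a −log10 IDR of 1.54. sls-2.5, sls-2.16 and F08H9.11 below were singled out after their values had been seen.

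The 122-base family had its 2 summits upstream. F38E11.10, an intergenic gene, had a signal of 107 in the pooled list, 56.0 in replicate 1 and 52.6 in replicate 2, with summits at −55, −55 and −66 (IV:9444472-9444701). This was the one family member marked in both replicates. F32B5.9, in an intron of cpz-1, which encodes a cathepsin Z protease, had the lowest signal of the 18 genes. Its peak at I:2688797-2689026 had a signal of 49.7 in the pooled list and 37.3 in replicate 2, both at −35.

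In the 165-base family, with the CTTACCTG letters, both summits lay inside the gene. sup-6 and sup-39 are known from genetics as suppressors of a 5′ splice site mutation. sup-6, in an intron of F58G1.7, had a signal of 72.6 in the pooled list at 48 and 58.9 in replicate 2 at 31 (II:12944804-12945033). sup-39, in an intron of C15F1.5, had 70.6 in the pooled list at 26 and 48.3 in replicate 2 at 53 (II:6968417-6968646). The annotated mir-1831, of biotype snRNA here, lies inside sup-39 and shares that peak, so the 2 genes are not separate observations. None of these 3 genes passed the threshold in replicate 1.

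C52E4.8 was the only marked gene of the 5 in the 144-base family. Its peak at V:11979963-11980192 lay upstream and in the promoter window of snr-4, a gene for an Sm protein. The signal was 92.4 in the pooled list, 39.1 in replicate 1 and 59.9 in replicate 2, at −40, −44 and −13.

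smy-1 lay farthest from its summit among the 18 genes. Its pooled summit, with a signal of 49.9 (IV:9511403-9511632), lay 321 bp downstream of its 5′ end and 245 bp from the gene, just inside the 250 bp limit. No summit of either replicate's thresholded list lay near it. The pooled ranked list gave this peak a −log10 IDR of 2.09. The ranked list of replicate 1 had an entry near smy-1 with a −log10 IDR of 0.02, and that of replicate 2 had none. The same summit lay 52 bp upstream of smy-2, which is also on the − strand. The annotation gives smy-2 as a snoRNA, although by name it belongs with the smy genes, and it is not among the 10 counted here. The median position at snoRNA genes was −52, a value to which this peak contributes. The summit also fell in the promoter window of C33A12.3.

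**Figure D4:**
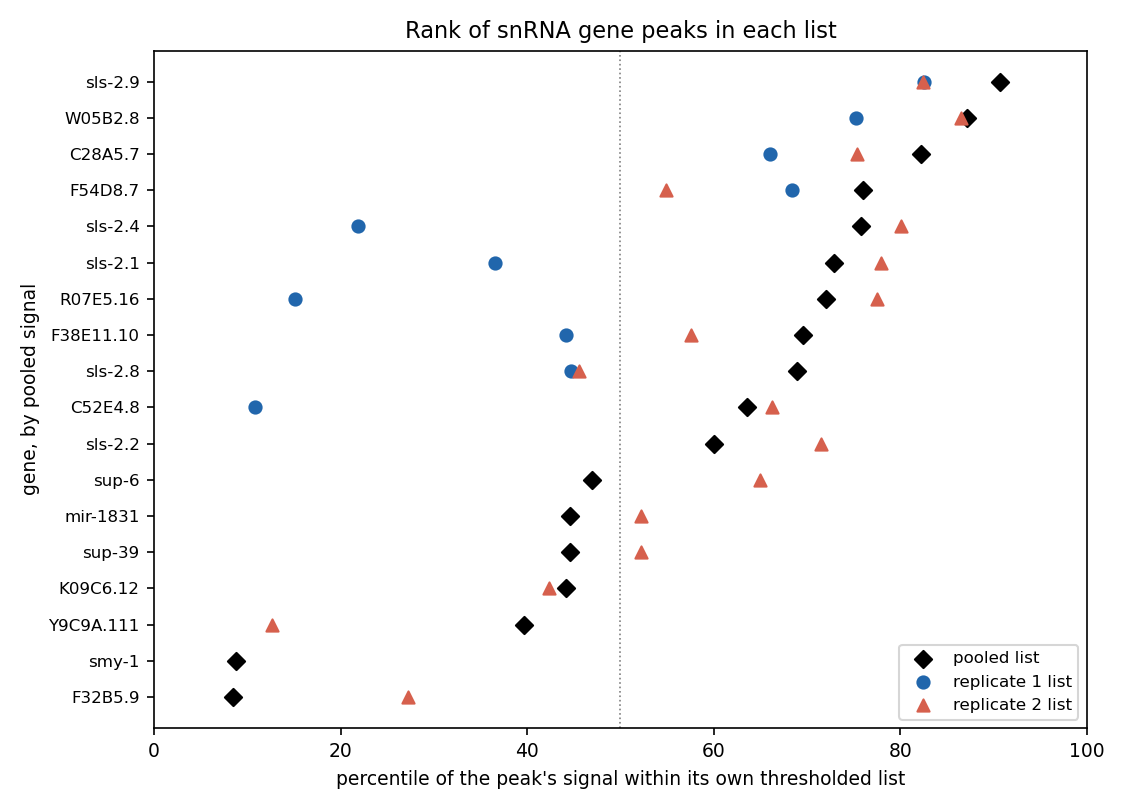
Percentile of the peak's signal within its own thresholded list (horizontal axis; the dotted line marks 50) for each of the 18 snRNA genes, ordered by pooled signal, in the pooled list (black diamonds), replicate 1 (blue circles) and replicate 2 (red triangles). The lists differ in length, so symbols of different lists are not on a common scale; of the 10 genes with both replicate symbols, the range is 10.8 to 82.5 in replicate 1 and 45.5 to 86.5 in replicate 2.

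For the 10 genes marked in both replicates, the percentile of signal within the thresholded list had a median of 44.4 in replicate 1 (10.8 to 82.5) and 76.4 in replicate 2 (45.5 to 86.5). These lists differ in length and in the signal at which they end, so the values do not rank the replicates. In the full ranked lists the same genes stood at percentiles 98.4 to 99.6 in replicate 1 and 98.7 to 99.6 in replicate 2, and replicate 1 was the higher for 4 of the 10. The 8 genes with a pooled summit but none in replicate 1 had an entry in its ranked list, with signals from 19.1 to 38.1, at a −log10 IDR of 0.02 to 1.84. Where several entries lay near a gene, the one with the highest signal is given. At sls-2.2 the only entry lay away from the pooled summit, at 285. Near sup-6 there were 2 entries, of which the one with the higher signal lay at 244. The position of the other is not given here.

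The 187-base family, with the GTAGTA letters, had no thresholded summit at any of its 19 genes. Pooled ranked entries lay at 12 of the 19, with signals of up to 36.7. Among all nuclear genes 40.7% have such an entry, and these entries are not read as a result about the family. C47F8.9 had 16.6 at −118 with a −log10 IDR of 0.04. The median share of unique 36-mers was 91.2% in the 250 bp upstream, 65.1% over 250 bp on both sides and 0 over the gene body. In the upstream measure 10 of the 19 genes reached 90% or more, and none of those 10 had a summit.

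The sls-1 genes, which make the SL1 leader RNA, form an array of 12 annotated genes over 14.0 kb (V:17118154-17132107), with no entry within 250 bp in the ranked list of the pool or of either replicate. sls-1.10 serves as the example. The nearest pooled ranked summit lay 343 to 3945 bp from these genes, and 4 such summits lay within the array. The median share of unique 36-mers around these genes was 0, with a maximum of 23.3%. A read of 36 bases from most of this sequence fits several sites, and the part of this in the lack of entries was not tested.

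Below the threshold, 42 snRNA genes had an entry in the pooled ranked list alone, and 69 had none. None of the 42 reached an IDR of 0.01, and 3 reached 0.05. These were F08H9.11 of the 165-base family (signal 42.0 at 14, −log10 IDR 1.96), H27M09.6 of the same family (45.5 at 86, 1.80) and sls-2.17. T08G5.11, of the 165-base family as well, had a ranked signal of 45.9 at 15 but a −log10 IDR of 0.10. F54C8.9, an identical copy of W05B2.8, had 42.6 at 88 with a −log10 IDR of 1.13. The 165-base family had 10 of its 13 genes in the ranked list, where 40.7% of nuclear genes have an entry, and 2 in the thresholded list. The 10 genes had 9 separate entries, since T27E4.22 and T27E4.12 overlap and share 1. In all, 47 snRNA genes had no entry in any of the 3 ranked lists.

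The CGGAACCC letters set against the summits gave close values for genes with and without them. In the 100 bases upstream, 31 of the 129 snRNA genes held CGGAACCC, against 36 of 46757 other nuclear genes (0.0770%). No snRNA gene held it on the opposite strand, which was searched as well. Of the 31 genes with the letters, 5 had a summit (16.1%), and of the 98 without, 13 (13.3%). With any letter at position 3 (CGNAACCC), the counts were 9 of 46 genes with the letters (19.6%) and 9 of 83 without (10.8%). The 9 genes with the letters and a summit include mir-1831 and sup-39. These overlap, hold the same copy of the letters and share a peak, so they are not separate observations. The genes with the letters and a summit also include smy-1, whose letters began at −62 and whose summit lay at 321. The difference between these shares was not tested. The CGNAACCC form was in 118 other genes (0.252%). TGTCGGTA, the next most shared letters with no 4 in a row in common with the first, stood at −48 or −47 in 23 snRNA genes and in 26 others (0.0556%). Of the 23 genes with these letters 2 had a summit (8.70%), and of the 106 without, 16 (15.1%); 13 of the 23 belong to the 187-base family.

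By position in the genome, marked snRNA genes were found in each setting. With the midpoint of the gene as the place, 8 of 62 intergenic genes, 9 of 55 in introns and 1 of 12 in exons had a summit. Of the 18 pooled peaks, 8 had their summit in intergenic sequence, 8 in an intron and 2 in an exon, and 4 lay in the promoter window of a protein-coding gene.

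Genes for proteins that make and use snRNAs were counted from a list of 59, of which 53 were matched by name. A summit lay in the promoter window, from 500 bp upstream to 200 bp downstream of a transcript start, at 5 of the 53 (9.43%, 3.13 to 20.7), against 2.88% of protein-coding genes. By role these were 3 of 7 genes for Sm proteins, which form the ring around snRNAs, 1 of 15 for other snRNP and spliced leader proteins, and 1 of 11 for Integrator, which cuts snRNA 3′ ends. None of the 8 genes for SNAP complex subunits and the TATA-binding protein, of the 7 for LSm proteins or of the 5 for assembly and modification had one.

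The Sm genes were snr-4, named above, snr-1 (IV:17087507-17087736) with a pooled signal of 73.9, and snr-2 (I:13338919-13339148) with 47.0. prp-8, which encodes the large U5 protein at the centre of the spliceosome, had 66.1 (III:8163923-8164152). The Integrator gene ints-4 had 61.1 (I:13663214-13663443). Other than snr-4, none of these 5 peaks lay near an snRNA gene.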

How the data were processed

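Peak lists of FLT-1 chromatin immunoprecipitation from 2 biological replicates were used, as deposited, on the ce11 assembly per the labels; all 140871 peaks of the 7 lists used lay within the WBcel235 chromosomes. The authors' signal (column 7) and, in the ranked lists, their −log10 IDR value are as deposited; the thresholded lists hold the peaks kept by IDR. The score column is a fixed multiple of log2 of 1/IDR, from the values. No p-values were computed and the depth is unknown. Aligner, peak caller and read length were not given in the sources used here.

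Genes came from Ensembl release 115 and names from RefSeq (46881 of 46890 matched). A gene had a summit when it lay within 250 bp. A peak near several genes was placed at the nearest 5′ end. Uniqueness was the share of 36-mers found once in the genome on either strand. Python 3.11.15, NumPy 2.4.6, SciPy 1.17.1, pandas 2.3.3, Biopython 1.88 and Matplotlib 3.10.9 were used. The distance and strand calculations were tested on made-up summits and a short made-up sequence, and the other steps were not. Genes named by a set rule are every one with a pooled summit and the 5 highest by ranked signal among the rest. The rule adds 1 (lowest identifier) of each family with neither, and pathway genes with a promoter summit. Further genes are named as sequence examples, as copies, neighbours or overlapping genes, or after their values had been seen. The members and lists were chosen with earlier results of these data known. Alternatives were the distance, list, replicate and counting of copies, given below. Peaks on the mitochondrial genome were left out. Gene sequences of 2 families are not reported here.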

Additional observations from a re-analysis of the deposited data

How the results depend on the processing

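In the upper 50% of the pooled list by signal, 11 snRNA genes had a summit in place of 18, and 10 in place of 17 without tRNA neighbours. Leaving out a replicate, by using the list of the other alone, gave 10 to 18 genes, 9 to 17 genes without tRNA neighbours, a median position of −21 to 4 and a median signal of 55.7 to 56.0. The fall to 10 genes came without replicate 2. The median signal was 106 within 100 bp, with the peak required to overlap the gene by 1 bp, or with identical sequences counted once, 106.6 by the 5′ end alone, and 115 in the upper 50% by signal, which keeps the higher peaks by construction; for the others the cause was not tested. Signals of different lists are not on a common scale. The count in both replicates was 8 to 10 under its 9 alternatives. Leaving out mir-1831, an alternative chosen after seeing the data, moved no count past 1.5 times. No paired analysis was possible because there was 1 group only. The number of genes per family limits all shares, repeated copies limit where reads can be placed, and unknown depth limits what the lack of a peak means.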
